A study of Mus musculus with 25 samples.

Results

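Gonadal white adipose tissue was compared between mice fed a high-fat diet (HFD) for 12 weeks and mice fed it for 8 weeks. The arrays were taken by their titles: 4 arrays of HFD for 12 weeks and 4 arrays of HFD for 8 weeks, 8 of the 25 arrays of the series. Each array is labelled as a separate biological replicate. All mice in every group were male and heterozygous for ApoE3L.CETP, that is, they carried the human ApoE3Leiden and CETP transgenes, which give the mouse a more human-like lipoprotein profile. No group without the transgenes was analysed here, so no result below separates the diet from the genotype. The HFD held 60% fat, 20% carbohydrate, 20% protein and 0.25% cholesterol, and feeding began at 12 weeks of age. The labels give an age of 34 weeks for the 12-week group and 20 weeks for the 8-week group. Feeding for 12 weeks from that start would end at an age of 24 weeks, so time on diet and age cannot be told apart, and the labelled age gap is wider than the gap in feeding. Set beside them are 4 arrays of a low-fat diet (LFD; 10% fat, 70% carbohydrate, 20% protein) for 12 weeks and 4 arrays of LFD for 8 weeks, with the same labelled ages. The other 9 arrays (HFD and LFD for 4 weeks, and chow) entered the fit and were used for ranges.

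White adipose tissue stores triglyceride in adipocytes, whose enlargement under an energy-rich diet is followed by the gathering of macrophages around dying fat cells. Macrophages that take up the released lipid are known as lipid-associated macrophages, and Trem2, Gpnmb, Itgax and Cd9 are among the genes that mark them in mouse fat. A microRNA is cut from a hairpin in a longer transcript, often an intron of a host gene, and its seed (bases 2 to 8) pairs with target messages. The comparison of 12 with 8 weeks asks what still moved in this tissue once the diet had been given for some time.

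Of the 8 genes that passed the test between 12 and 8 weeks of HFD, 5 are microRNA genes, and mature sequences were at hand for 2 of these. They are shown because microRNA genes are the largest class among the called genes, and because Mir342 is the called gene whose high values lay in the 12-week HFD arrays alone. The sequences are those of RefSeq for GRCm38.p6, 5′ to 3′, with the seed in capitals.
mmu-miR-342-3p: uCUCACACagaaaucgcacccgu
mmu-miR-342-5p: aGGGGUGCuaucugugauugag
mmu-miR-3471: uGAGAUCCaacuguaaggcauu
In the Mir342 hairpin, which lies within the span of Evl at chr12:108658620-108658718 on the plus strand (GRCm38.p6), the capitals mark the 2 mature arms.
Mir342 hairpin: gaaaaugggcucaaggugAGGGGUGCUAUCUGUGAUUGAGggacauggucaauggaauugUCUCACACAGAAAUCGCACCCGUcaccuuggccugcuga
The 3 printed seeds differ from each other. Mir3471-1 lies at chr4:10845500-10845630 on the minus strand. The other called microRNA genes, Mir466h, Mir669a-3 and Mir467c, are named only. An array of this kind is hybridised with labelled cDNA from total RNA, so a value at a microRNA gene does not separate the mature microRNA from its hairpin or from the host transcript.

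Array medians of the 8 HFD arrays ran from 5.04 to 5.17 on the log2 scale. Pairs of these arrays correlated at 0.968 to 0.990 over all transcript clusters. The labelled tissue was borne out: the mean over 20 measured genes of the mature adipocyte list was 11.17 to 11.38 in the HFD 12-week arrays and 11.33 to 11.45 in the HFD 8-week arrays. Single arrays stood apart in liver transcripts and in macrophage transcripts. The mean over 25 hepatocyte genes was 9.77, 9.26, 5.33 and 9.54 in the HFD 12-week arrays and 6.98, 10.58, 10.52 and 10.56 in the HFD 8-week arrays, so 3 of 4 arrays of each group held liver transcripts at a high level and 1 of each at a lower one (array 3 at 12 weeks and array 1 at 8 weeks). Xist, an RNA of the inactive X chromosome, was 5.37, 5.03, 3.86 and 5.36 in the HFD 12-week arrays of these male mice and 3.78, 5.87, 6.24 and 6.06 in the HFD 8-week arrays, low in the same 2 arrays. The same HFD 8-week array 1 had a mean of 10.10 over 18 lipid-associated macrophage genes, beside 8.90, 8.81 and 9.07 in the other HFD 8-week arrays. All results are given for all arrays, and again without these arrays where they rest on them.

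Between 12 and 8 weeks of HFD, 8 of 22180 genes were called (0.0361%) at a Benjamini-Hochberg adjusted p under 0.05 in limma's moderated test, 4 higher and 4 lower (0.018% each). At an unadjusted p under 0.05 there were 1635 genes (7.37%), of which 975 were higher at 12 weeks (4.4%) and 660 lower (2.98%). The arrays of the 2 groups did not overlap for 1044 genes (4.71%), 598 of them higher (2.7%) and 446 lower (2.01%). All differences below are log2, 12 minus 8 weeks, ± the moderated standard error. The 7 called genes with a Mir or Olfr symbol fall outside the rule by which genes were named and were chosen after their values were seen.

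Mir466h was 7.33, 7.85, 7.51 and 7.88 in the HFD 12-week arrays and 6.12, 4.89, 4.72 and 5.72 in the HFD 8-week arrays. It rose by 2.28 ± 0.28 (adjusted p = 0.000657), a 4.86-fold difference, with no overlap between the groups. Mir669a-3 was 6.47, 6.38, 6.04 and 7.05 in the HFD 12-week arrays and 4.62, 4.33, 4.62 and 5.08 in the HFD 8-week arrays, a rise of 1.82 ± 0.25 (adjusted p = 0.00159). Mir467c moved the other way. Its values were 6.85, 6.38, 5.61 and 6.28 in the HFD 12-week arrays, against 8.57, 8.17, 8.68 and 8.27 in the HFD 8-week arrays, and the difference was -2.14 ± 0.26 (adjusted p = 0.000657). The 3 genes lie on chromosome 2 within the span of Sfmbt2, in a large cluster of near-identical microRNA genes, where an array probe can read more than one copy. Sfmbt2 itself, which encodes a Polycomb-group protein, averaged 4.71 ± 0.15 (SD, n = 4) in HFD 12-week arrays and 4.64 ± 0.08 (SD, n = 4) in HFD 8-week arrays, and was not called (difference 0.07 ± 0.14).

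Across this family (symbols Mir297, Mir466, Mir467 and Mir669), 70 transcript clusters of the array held 39 distinct sets of values. In the test of every cluster, 4 of the 39 were called higher and 1 lower. Over all 34472 clusters, 21 were called higher and 75 lower (0.278% in all). Of all 39, 20 had a positive and 19 a negative difference with a median of 0.04. Neighbours in the cluster thus differed in sign. Many of the 39 sets were dim, such as Mir466i, with a mean of 2.47 in the HFD 12-week arrays and 2.66 in the HFD 8-week arrays. Besides the 3 genes above, Mir297a-4 (1.16 ± 0.24) and Mir669m-1 (1.13 ± 0.24) were called in that test, and both were chosen after their values were seen.

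Mir342 was 6.84, 6.25, 6.49 and 6.43 in the HFD 12-week arrays and 5.88, 4.98, 5.42 and 5.16 in the HFD 8-week arrays. It rose by 1.14 ± 0.19 (adjusted p = 0.0255), a 2.21-fold difference. The values were 5.09, 5.41, 5.05 and 5.15 in the LFD 12-week arrays and 5.20, 4.66, 5.39 and 4.93 in the LFD 8-week arrays, and no array outside the HFD 12-week group exceeded 6.00. The change under HFD exceeded that under LFD by 1.01 ± 0.28, which did not pass the test over all genes (adjusted p = 0.97). Its host Evl, an Ena/VASP protein that promotes actin filament growth, was 9.71, 8.69, 9.34 and 9.09 in the HFD 12-week arrays and 9.18, 8.22, 8.36 and 8.36 in the HFD 8-week arrays. Evl had a difference of 0.68 ± 0.21 and was not called (adjusted p = 0.40). In both genes HFD 8-week array 1 was the highest of its group. Without that array the difference was 1.32 ± 0.19 for Mir342 (adjusted p = 0.00438) and 0.89 ± 0.19 for Evl (adjusted p = 0.0857). The call of Mir342 was lost when HFD 8-week array 2, 3 or 4 or HFD 12-week array 1, 3 or 4 was left out, with differences of 1.02 to 1.17 and adjusted p from 0.0639 to 0.102.

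Mir3471-1 was 3.56, 3.05, 3.42 and 3.17 in the HFD 12-week arrays and 4.83, 4.86, 4.68 and 3.90 in the HFD 8-week arrays. It fell by 1.27 on the log2 scale (adjusted p = 0.0392). These values lie at the dim end of the arrays. Leaving out a single array ended the call in 13 of 16 fits, with the difference staying between -1.35 and -1.17.

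The called olfactory receptor genes also had low values, Olfr875 in both HFD groups and Olfr310 in the HFD 8-week arrays. Olfr310 was 5.63, 5.46, 5.49 and 5.07 in the HFD 12-week arrays and 3.84, 3.77, 3.89 and 3.96 in the HFD 8-week arrays, a rise of 1.55 ± 0.22 (adjusted p = 0.00278). Olfr875 was 3.54, 3.80, 4.19 and 3.91 in the HFD 12-week arrays and 4.96, 4.47, 4.83 and 5.07 in the HFD 8-week arrays. It fell by 0.97 on the log2 scale (adjusted p = 0.0392), and 12 of 16 fits without a single array lost the call.

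Cox7b, a small subunit of cytochrome c oxidase, the last complex of the respiratory chain, was the one called gene with a known metabolic role. It was 8.09, 7.97, 7.78 and 7.55 in the HFD 12-week arrays and 8.99, 9.32, 9.05 and 8.75 in the HFD 8-week arrays. The difference was -1.18 ± 0.19 (adjusted p = 0.0102), which is 2.27-fold lower at 12 weeks. A second, dimmer cluster of Cox7b did not follow, with a difference of 0.09 ± 0.27, and averaging both clusters gave -0.55 (adjusted p = 0.501). The call was lost without HFD 8-week array 2 (-1.08, adjusted p = 0.0515), HFD 8-week array 3 (-1.17, adjusted p = 0.0551) or HFD 12-week array 4 (-1.08, adjusted p = 0.0731).

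Cox6b1, another subunit of the same complex, had the lowest p among the lower genes that were not called. It was 9.35, 9.27, 9.30 and 9.12 in the HFD 12-week arrays and 9.81, 9.76, 9.77 and 9.77 in the HFD 8-week arrays. The groups did not overlap, and the difference of -0.52 ± 0.10 missed the threshold (adjusted p = 0.0556). Among 78 genes with symbols of respiratory chain and ATP synthase subunits, gathered after the values were seen, 61 had a negative difference and the median was -0.14, beside a median of 0.02 over all genes. At an unadjusted p under 0.05, 14 were lower and 0 higher, and limma called 1 of them, Cox7b. Cox5a (-0.32 ± 0.10), Cyc1 (-0.39 ± 0.16) and Ndufb8 (-0.27 ± 0.13) are examples, none of them called. The median of the same genes between LFD 12-week and LFD 8-week arrays was -0.17. Among these, the 17 genes with Cox symbols had a median of -0.0175 under HFD, 11 of them negative, and -0.195 under LFD. The oxidative phosphorylation list, which holds 19 measured genes, gave medians of -0.12 under HFD and -0.20 under LFD.

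**Figure D1:**
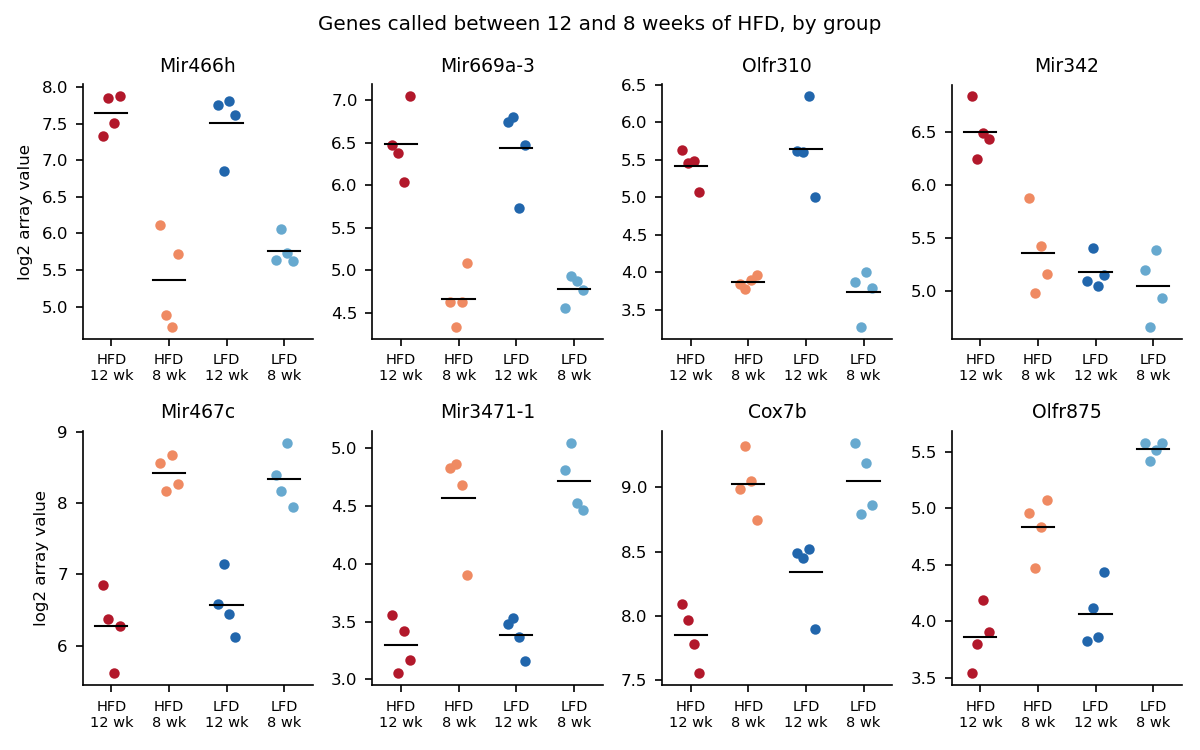
Log2 array values (vertical axes, a separate scale in each panel) of the 8 called genes in the 4 arrays of HFD 12 weeks, HFD 8 weeks, LFD 12 weeks and LFD 8 weeks. Points are arrays and lines are group means. Mir467c sits between 5.61 and 7.15 in all 12-week arrays of both diets, while Mir342 is high in the HFD 12-week arrays and not in the LFD 12-week arrays.

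Most of the called genes moved the same way under LFD. The LFD arrays are outside the HFD contrast, but they share the estimate of the spread by which genes were called. The difference between LFD 12-week and LFD 8-week arrays was 1.75 for Mir466h, 1.66 for Mir669a-3, 1.92 for Olfr310, -1.76 for Mir467c, -1.33 for Mir3471-1 and -1.46 for Olfr875, and these 6 were called under LFD too, where 15 genes in all were called (0.0676%). Cox7b had -0.71 ± 0.19 under LFD and was not called there (adjusted p = 0.217), and Mir342 had 0.13 ± 0.19. For 5 of the 8 genes, the 8 arrays of 12 weeks, both diets together, did not overlap with the 17 others: Mir467c was at most 7.15 at 12 weeks and at least 7.86 elsewhere, and Olfr310 was at least 5.01 at 12 weeks and at most 4.85 elsewhere. The labels name no date of extraction, hybridisation or scan. What the 12-week arrays of both diets share beyond time on diet and age therefore cannot be told apart from them.

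The test of every transcript cluster gave the same pattern. Of 34472 clusters, 96 were called between 12 and 8 weeks of HFD (0.278%), 21 higher and 75 lower, and 70 of the 96 carry no gene symbol. All 96 had the same sign under LFD, where 57.0% of all clusters did, and 51 of them were called under LFD as well. Mir210, whose microRNA is induced by hypoxia, was called lower there. It was 6.93, 6.46, 6.33 and 6.50 in the HFD 12-week arrays and 7.58, 7.28, 7.30 and 7.17 in the HFD 8-week arrays, and the difference was -0.78 ± 0.16 under HFD and -1.17 ± 0.16 under LFD. In the fit over genes its adjusted p under HFD was 0.103.

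The direct test of whether the difference of 12 minus 8 weeks differed between the diets made no call. Limma called 0 of 22180 genes (0%), and 1127 had an unadjusted p under 0.05 (5.08%). With the arrays split by their hepatocyte mean as a block, a setting added after seeing the data and made on the liver values themselves, 155 genes were called, 1 higher and 154 lower. The 4 smallest p belonged to Arhgef19, Fam110c, Zfp263 and Slc6a12. Arhgef19 differed by -0.32 ± 0.15 under HFD and 0.67 ± 0.15 under LFD. Slc6a12, a transporter of betaine and GABA, differed by -0.44 ± 0.20 under HFD and 0.71 ± 0.20 under LFD. Fam110c differed by 0.28 ± 0.11 under HFD and -0.39 ± 0.11 under LFD, and Zfp263 by 0.30 ± 0.10 and -0.27 ± 0.10.

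**Figure D2:**
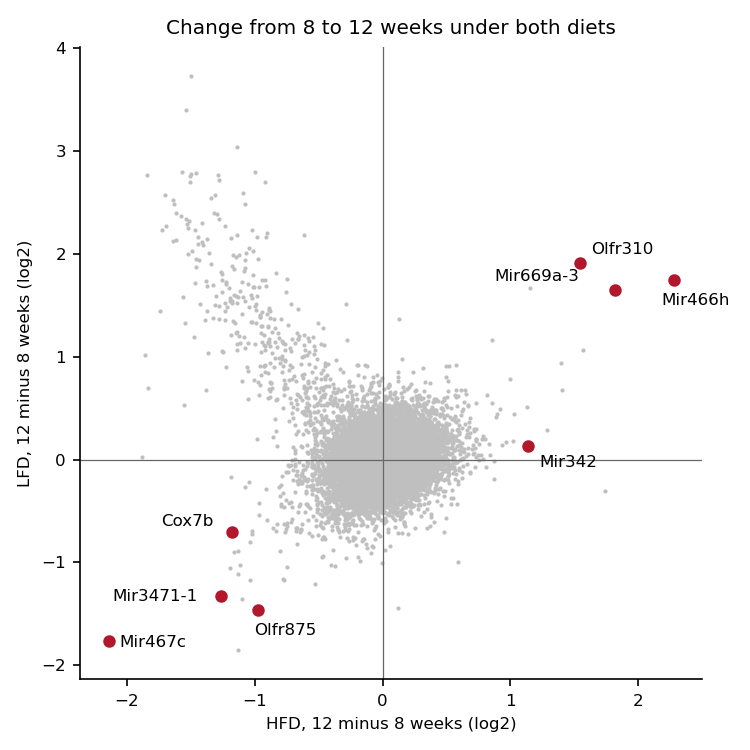
Log2 difference of 12 minus 8 weeks under HFD (horizontal axis) against the same under LFD (vertical axis) for 22180 genes, with the 8 called genes in red. Of the labelled genes, Mir342 sits near 0 on the LFD axis; the grey points at the upper left include the liver genes, such as Alb at -1.34 under HFD and 1.90 under LFD.

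Among genes with established names, the 12 of smallest p with higher values at 12 weeks and arrays apart were Tcerg1l, Kif14, Twf1, Tbl1xr1, Tacc2, Spg20, Zc3h12c, Herpud2, Dyrk2, Akirin1, Mastl and Uimc1. None was called, and the differences ran from 0.34 to 0.61. Kif14, a kinesin of cytokinesis, was 4.73, 4.68, 4.62 and 4.60 in the HFD 12-week arrays and 4.25, 3.67, 4.10 and 4.16 in the HFD 8-week arrays (0.61 ± 0.13, adjusted p = 0.0941). Mastl, the Greatwall kinase that holds back phosphatase PP2A in mitosis, had a difference of 0.61 ± 0.15. Twf1, an actin-monomer binding protein, was 10.49, 10.46, 10.42 and 10.50 in the HFD 12-week arrays and 10.03, 10.18, 10.10 and 10.15 in the HFD 8-week arrays, and the difference was 0.35 ± 0.08. Its difference under LFD was 0.30 ± 0.08, so both diets gave about the same value. Tbl1xr1, a subunit of the NCoR corepressor complex, had 0.44 ± 0.10 under HFD and 0.07 ± 0.10 under LFD. All 12 had a positive difference under LFD as well. Of the 12 lower genes named next, 10 had the same sign under LFD. Over all protein-coding genes, 55.6% had the same sign under both diets.

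The 12 genes on the lower side were Cox7b, Cox6b1, Cldn34b2, Cdh4, Ifitm2, Tmem42, Ifitm3, Cyp4a12b, Anapc13, Col13a1, Psmb7 and Grip1os2, of which Cox7b was called. Ifitm2 and Ifitm3 encode membrane proteins, induced by interferon, that hinder the entry of viruses. Ifitm2 was 8.20, 8.36, 8.67 and 8.16 in the HFD 12-week arrays and 9.16, 9.31, 9.22 and 8.71 in the HFD 8-week arrays (-0.75 ± 0.15, adjusted p = 0.0835). Ifitm3 was between 10.94 and 11.16 in the HFD 12-week arrays and between 11.37 and 11.70 in the HFD 8-week arrays (-0.49 ± 0.10, adjusted p = 0.108). Under LFD the difference was -0.68 ± 0.15 for Ifitm2 and -0.01 ± 0.10 for Ifitm3. Anapc13 (-0.43 ± 0.09), a subunit of the anaphase-promoting complex, and Psmb7 (-0.37 ± 0.09), a catalytic subunit of the proteasome, had groups that did not overlap. Cyp4a12b, a fatty acid hydroxylase of male mouse liver and kidney, was 5.90, 4.25, 3.25 and 5.04 in the HFD 12-week arrays and 6.16, 6.14, 6.86 and 6.81 in the HFD 8-week arrays (-1.88 ± 0.41, adjusted p = 0.122). It belongs to the liver genes with a sex bias, and its lowest value stood in the HFD 12-week array with the low hepatocyte mean. In the HFD 8-week array with the low hepatocyte mean, array 1, it was 6.16, beside 6.14 in array 2.

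Genes higher and lower at 12 weeks differed in genomic span. The 190 protein-coding genes higher at 12 weeks of HFD at an unadjusted p under 0.01 had a median genomic span of 36.2 kb, and the 141 lower ones a median of 7.87 kb, beside 18.7 kb over 18987 protein-coding genes. Of the higher genes 75.8%, and of the lower ones 78.7%, had the same sign under LFD, where 55.6% of all protein-coding genes did. These genes were picked by their p and are a description.

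The genes of lipid-associated macrophages had the largest positive median of all lists. Of 18 measured members, 15 had a positive difference, the median was 0.47, and 6 had an unadjusted p under 0.05, all higher; limma called 0 of them. The background over all genes was 4.4% higher and 2.98% lower at that p. In bulk tissue, more cells of a type and more RNA per cell cannot be told apart.

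Gpnmb, a transmembrane glycoprotein of lipid-laden macrophages, was 11.86, 10.07, 11.34 and 11.02 in the HFD 12-week arrays and 11.61, 8.91, 8.23 and 9.26 in the HFD 8-week arrays (1.57 ± 0.55, adjusted p = 0.516). Trem2, a lipid-sensing receptor, was 9.35, 8.14, 9.0 and 8.10 in the HFD 12-week arrays and 9.32, 7.03, 7.25 and 7.11 in the HFD 8-week arrays (0.97 ± 0.37, adjusted p = 0.570). Itgax, the CD11c integrin, was 8.92, 7.95, 9.52 and 8.46 in the HFD 12-week arrays and 8.98, 7.57, 7.11 and 7.52 in the HFD 8-week arrays. In each of these genes 3 of the HFD 8-week arrays lay below all 4 HFD 12-week arrays, and array 1 lay within their range. Tm4sf19, a tetraspan membrane protein, was 8.64, 7.42, 8.59 and 7.85 in the HFD 12-week arrays and 9.12, 5.88, 5.91 and 6.43 in the HFD 8-week arrays. Atp6v0d2, a subunit of the lysosomal proton pump, was 10.18, 8.27, 9.51 and 9.10 in the HFD 12-week arrays and 9.96, 7.11, 6.88 and 7.51 in the HFD 8-week arrays. Here too the other HFD 8-week arrays lay below the 12-week group, while array 1 lay within its range for Atp6v0d2 and above it for Tm4sf19.

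HFD 8-week array 1 was the highest of its group in 16 of the 18 genes of the list. It was singled out on these same values, so the counts without it describe how far the comparison rests on that array and are no independent support. Without it the list median was 0.71, 12 of 18 genes had an unadjusted p under 0.05 (all higher, where 5.26% of all genes were), and 10 of 18 had groups that did not overlap, where 6.53% of all genes did. Limma then called 14 genes of 22180 (0.0631%), 12 of them higher. Among these were Trem2 (1.52 ± 0.26, adjusted p = 0.0161), Tm4sf19 (2.05 ± 0.31, adjusted p = 0.00438) and 5 further genes outside the list, named after their values were seen. They are Il7r (1.98 ± 0.29), the interleukin-7 receptor, Adam8 (1.49 ± 0.26), a metalloprotease of myeloid cells, Slc37a2 (1.30 ± 0.22), a sugar-phosphate exchanger of macrophages, Igsf6 (1.07 ± 0.20) and Gas2l3 (0.99 ± 0.13), a cytoskeletal linker. With all arrays the same 5 genes had differences of 1.40, 0.94, 0.84, 0.70 and 0.65 in that order, and none was called. The hepatocyte mean of that array is also low, so the list was set out again over the 3 arrays of each group with a high hepatocyte mean. That split was added after seeing the data and drops the same array, so it is no independent support either. The median was then 0.66, and 4 of 18 genes were called higher, where 0.28% of all genes were. Those 4 were Trem2 (1.40 ± 0.29), Gpnmb (2.18 ± 0.42), Atp6v0d2 (2.02 ± 0.41) and Tm4sf19 (1.90 ± 0.31). With the same 6 arrays compared but all arrays of the other groups kept in the fit, 1 of the 18, Tm4sf19, was called (adjusted p = 0.0279). Between LFD 12-week and LFD 8-week arrays the list median was 0.16, with 1.06 ± 0.55 for Gpnmb and 0.17 ± 0.37 for Trem2, neither of them called.

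**Figure D3:**
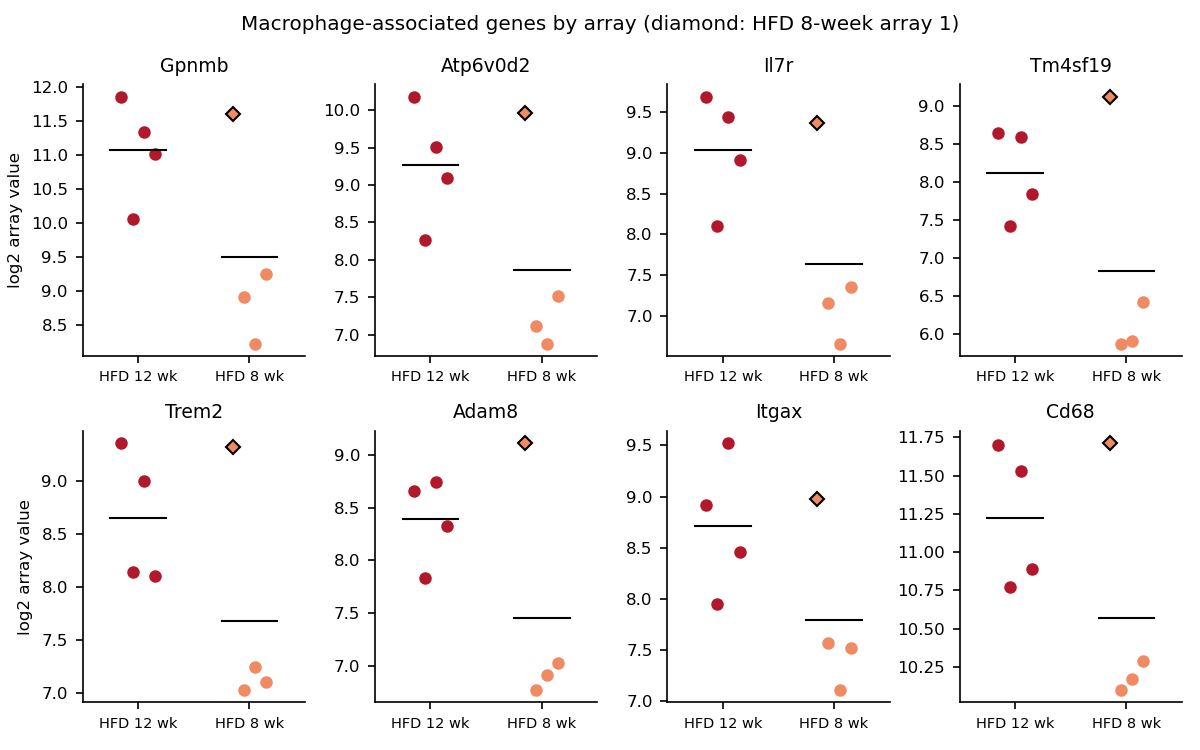
Log2 array values (vertical axes, a separate scale in each panel) of 8 genes, titled macrophage-associated, in the 4 HFD 12-week and 4 HFD 8-week arrays. Of these, Il7r is on the cytokine and acute-phase list and Adam8 on the list of matrix proteases and inhibitors. Points are arrays, lines are group means, and the diamond is HFD 8-week array 1. In each panel the other HFD 8-week arrays lie below all HFD 12-week arrays, for example Trem2 at up to 7.25 beside at least 8.10.

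The list of general macrophage genes had a smaller median. Of 22 measured members, 18 had a positive difference, the median was 0.14, and limma called 0; Cd68 (0.66 ± 0.30), Spi1 (0.55 ± 0.23) and Mpeg1 (0.50 ± 0.23) had an unadjusted p under 0.05. HFD 8-week array 1 was the highest of its group in 20 of the 22 genes. Without it the median was 0.32, 20 were positive and 0 were called. At an unadjusted p under 0.05, 8 of the 22 were then higher, where 5.26% of all genes were. Cd68, a lysosomal glycoprotein of macrophages, was 11.70, 10.77, 11.53 and 10.89 in the HFD 12-week arrays and 11.71, 10.10, 10.17 and 10.29 in the HFD 8-week arrays. Adgre1, an adhesion receptor that marks mouse macrophages, had 0.30 ± 0.22. The resident macrophage list had a median on the other side of 0, with 11 of 13 members negative and a median of -0.29, and limma called 0. Cbr2, a carbonyl reductase, had -0.39 ± 0.14, Lyve1, a hyaluronan receptor, -0.41 ± 0.21, and Timd4, a phosphatidylserine receptor, -0.18 ± 0.20. With the hepatocyte mean as a covariate, the differences of Cbr2, Lyve1 and Timd4 were -0.42, -0.43 and -0.14. The part of liver RNA in the values of this list was not tested.

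Lysosomal genes had a median of 0.15, with 17 of 20 members positive and 0 called. At an unadjusted p under 0.05, 4 were higher and 0 lower, where 4.4% and 2.98% of all genes were. Gla, the alpha-galactosidase that breaks down glycolipids, was 8.84, 7.84, 8.55 and 8.32 in the HFD 12-week arrays and 8.20, 7.37, 7.31 and 7.75 in the HFD 8-week arrays (0.73 ± 0.20, adjusted p = 0.338). Ctss, the protease cathepsin S, had 0.68 ± 0.28, and Atp6v1a, a subunit of the proton pump, had 0.41 ± 0.15. The means over the lysosome list were 10.63, 10.08, 10.46 and 10.27 in the HFD 12-week arrays and 10.57, 9.92, 9.87 and 9.97 in the HFD 8-week arrays, with array 1 of the 8-week group again the highest of that group. Without that array, 10 of 20 lysosomal genes had an unadjusted p under 0.05, all higher, where 5.26% of all genes were. Atp6v0d2, Ctsk, Lipa and Cd63 are also on the lipid-associated macrophage list. That array was singled out on that list, so this count is no independent support.

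Lists of inflammatory signals had medians near that of all genes. The chemokine list (22 measured) had a median of -0.04 with 1 gene higher and 1 lower at an unadjusted p under 0.05, and the cytokine and acute-phase list (23 measured) had a median of 0.01 with 2 higher; limma called 0 in either. Ccl2, the chemokine that draws monocytes into fat, was 8.79, 8.07, 7.53 and 7.76 in the HFD 12-week arrays and 9.05, 7.58, 8.29 and 7.74 in the HFD 8-week arrays (-0.13 ± 0.36). Tnf had 0.17 ± 0.18, and Saa3, an acute-phase protein of fat, -0.05 ± 0.37. H2-Ab1, a chain of MHC class II, had -0.03 ± 0.19. Lists of T and NK cells, B and plasma cells, and granulocytes and mast cells had medians of 0.03, 0.11 and -0.03, with 0 genes called. The T and NK cell median was -0.16 without HFD 12-week array 3, and the B and plasma cell median was -0.02 over the 3 arrays of each group with a high hepatocyte mean. The difference of Ccl2 was 0.17 without HFD 8-week array 1. Il7r, given above, is on the cytokine and acute-phase list and had its largest difference (1.40, not called). Without HFD 8-week array 1 the median of that list was 0.01, and Il7r was called. At an unadjusted p under 0.05, 4 of its 23 genes were then higher and 1 lower, where 5.26% of all genes were higher.

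**Figure D4:**
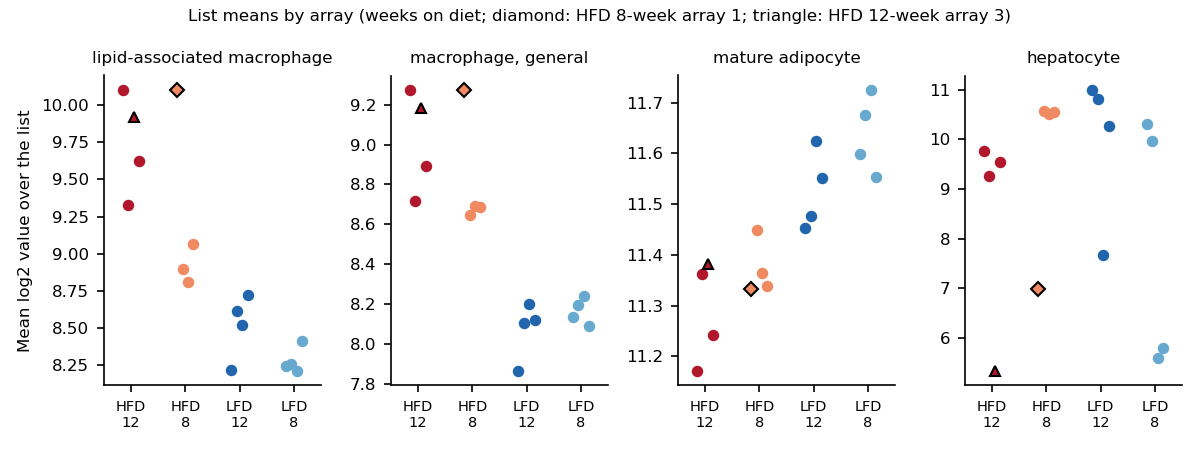
Mean log2 value over the measured genes of 4 lists (vertical axes) in each array of HFD 12 weeks, HFD 8 weeks, LFD 12 weeks and LFD 8 weeks; each point is an array. HFD 8-week array 1 (diamond) has a lipid-associated macrophage mean of 10.10, beside 8.81 to 9.07 in the rest of its group, and HFD 12-week array 3 (triangle) has a hepatocyte mean of 5.33.

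Of 16 measured interferon-stimulated genes, 14 had a negative difference, where 10197 of all 22180 genes did. The median was -0.18, and 4 had an unadjusted p under 0.05 together with arrays that did not overlap, all of them lower. Over all genes, 2.98% were lower at that p and 2.01% were lower without overlap. Limma called 0 of the 16 genes. Usp18, which takes ISG15 off its targets and dampens interferon signalling, was 7.07, 7.36, 7.38 and 7.09 in the HFD 12-week arrays and 7.98, 7.50, 8.00 and 7.68 in the HFD 8-week arrays (-0.56 ± 0.14, adjusted p = 0.203). Ifit1, which binds foreign RNA, was 7.39, 7.31, 7.55 and 6.88 in the HFD 12-week arrays and 8.13, 7.71, 7.90 and 8.14 in the HFD 8-week arrays (-0.69 ± 0.18, adjusted p = 0.305). Isg15, the ubiquitin-like modifier itself, had -0.52 ± 0.16 and Irf7, a transcription factor of the interferon response, -0.39 ± 0.16. Under LFD the differences of Usp18, Ifit1, Isg15 and Irf7 were -0.47, -0.32, -0.39 and -0.56, and the list median was -0.08. Without HFD 8-week array 1, 10 of the 16 genes had a negative difference and the HFD median was -0.14.

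No adipocyte gene passed the test. The mature adipocyte list had a median of -0.06 over 20 genes, with 0 at an unadjusted p under 0.05 and 0 called. Adipoq, which encodes adiponectin, was 11.18, 11.58, 11.40 and 11.44 in the HFD 12-week arrays and 11.54, 11.59, 11.58 and 11.42 in the HFD 8-week arrays (-0.13 ± 0.16). Lep, which encodes leptin, was 13.08, 13.26, 12.98 and 13.13 in the HFD 12-week arrays and 13.29, 13.24, 13.06 and 12.95 in the HFD 8-week arrays (-0.02 ± 0.22). Slc2a4, the insulin-responsive glucose transporter, had -0.33 ± 0.23. Pparg, the master regulator of fat cell formation, had -0.08 ± 0.24.

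The same held for fat synthesis. Over 17 genes of de novo lipogenesis the median was -0.14, 0 had an unadjusted p under 0.05 and 0 were called. Fasn, the fatty acid synthase, was 12.29, 12.35, 12.59 and 12.20 in the HFD 12-week arrays and 12.35, 12.48, 12.35 and 12.37 in the HFD 8-week arrays (-0.03 ± 0.22). Among other enzymes, Scd1 had -0.04 ± 0.09, Acaca -0.03 ± 0.27 and Elovl6 -0.18 ± 0.55. Srebf1 and Mlxipl, the transcription factors of the pathway, had -0.25 ± 0.23 and -0.05 ± 0.21. In the list of lipid droplet and lipolysis genes (18 measured, median -0.05), the lipases Pnpla2 (-0.03 ± 0.18) and Lipe (0.03 ± 0.14) were near 0, while Bscl2, the seipin of droplet formation, had -0.41 ± 0.18. Bscl2 had about the same difference under LFD (-0.46 ± 0.18). Genes of adipocyte expansion, such as Sfrp5 (0.23 ± 0.55), Mest (0.17 ± 0.25) and Slc5a7 (0.63 ± 0.43), had a median of 0.15 over 13 members under HFD and 0.49 under LFD. Dio2, the deiodinase that makes active thyroid hormone, was 4.35, 4.14, 4.39 and 4.28 in the HFD 12-week arrays and 5.18, 4.46, 4.64 and 4.91 in the HFD 8-week arrays (-0.51 ± 0.21, not called). Ucp1, the uncoupling protein of heat-producing fat cells, was dim throughout, at 3.78 to 4.52 in the HFD 12-week arrays and 3.81 to 3.97 in the HFD 8-week arrays.

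Cholesterol synthesis had a median of -0.03 over 17 genes under HFD, with 0 called, while it was -0.44 between LFD 12-week and LFD 8-week arrays. Lss, the lanosterol synthase, differed by less than 0.01 under HFD and by -1.0 ± 0.40 under LFD, where one LFD 8-week array stood at 10.0 and the others at 8.01 to 8.40. The difference between the diets was not called for any of these genes.

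No matrix gene passed the test either. Over 31 collagens and matrix proteins the median was 0.05, with 0 called and 0 at an unadjusted p under 0.05. Col1a1 had 0.16 ± 0.18, Col3a1 -0.03 ± 0.16 and Col6a1 -0.02 ± 0.18 under HFD, and -0.52 ± 0.18, -0.49 ± 0.16 and -0.40 ± 0.18 under LFD. Postn, a matrix protein, had 0.11 ± 0.20, Timp1, an inhibitor of matrix proteases, -0.12 ± 0.26, and Angpt1, a vessel-stabilising ligand, -0.41 ± 0.33 under HFD. Mmp13, a collagenase, was 4.69, 4.33, 4.90 and 4.20 in the HFD 12-week arrays and 4.43, 3.65, 4.01 and 3.80 in the HFD 8-week arrays (0.56 ± 0.22, not called). Cell cycle genes had a median of 0.14 over 26 members, 21 of them positive. Mki67 had 0.14 ± 0.22 and Top2a 0.15 ± 0.23, both without a call. The cell cycle inhibitors Cdkn1a (-0.20 ± 0.28) and Cdkn2a (-0.02 ± 0.11) were not called either.

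Mesothelial genes, which mark the lining of the fat pad, had the lowest median apart from the liver lists, at -0.56 over 12 members, with 11 negative and 0 called. Upk3b, a uroplakin, was 9.02, 10.24, 10.65 and 8.02 in the HFD 12-week arrays and 9.47, 10.90, 10.26 and 10.42 in the HFD 8-week arrays (-0.78 ± 0.37). Msln, which encodes mesothelin, was 7.03, 8.52, 8.60 and 6.73 in the HFD 12-week arrays and 7.79, 8.66, 8.22 and 8.43 in the HFD 8-week arrays (-0.56 ± 0.31). In both genes HFD 12-week arrays 1 and 4 were low and arrays 2 and 3 lay within the 8-week range. How much of the lining each piece of tissue held was not tested.

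Clock genes had a median of 0.25 over 17 members, with 3 at an unadjusted p under 0.05, all higher, and 0 called. Cry1, a repressor of the clock, was 6.15, 6.54, 6.40 and 6.48 in the HFD 12-week arrays and 6.03, 5.75, 6.01 and 6.06 in the HFD 8-week arrays (0.43 ± 0.17). Per3 had 0.49 ± 0.21, Nr1d2 0.35 ± 0.16 and Dbp 0.47 ± 0.26, while Arntl, their activator, had -0.39 ± 0.23. The median was 0.13 without HFD 8-week array 1 and 0.11 over the 3 arrays of each group with a high hepatocyte mean. The hour at which tissue was taken is not given in the sources used here, and its part in these values was not tested.

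Among stress genes, 1 member of the unfolded protein response list of 18 had an unadjusted p under 0.05: Atf3, a stress-induced transcription factor (0.73 ± 0.27). Bag3, a co-chaperone of the heat shock response, was 9.32, 9.17, 9.38 and 9.09 in the HFD 12-week arrays and 8.91, 8.92, 8.63 and 8.73 in the HFD 8-week arrays (0.44 ± 0.13, adjusted p = 0.347). Hspe1, a mitochondrial chaperonin, had -0.65 ± 0.19, and Sod1, the cytosolic superoxide dismutase, -0.35 ± 0.10. None of these 4 genes was called.

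**Figure D5:**
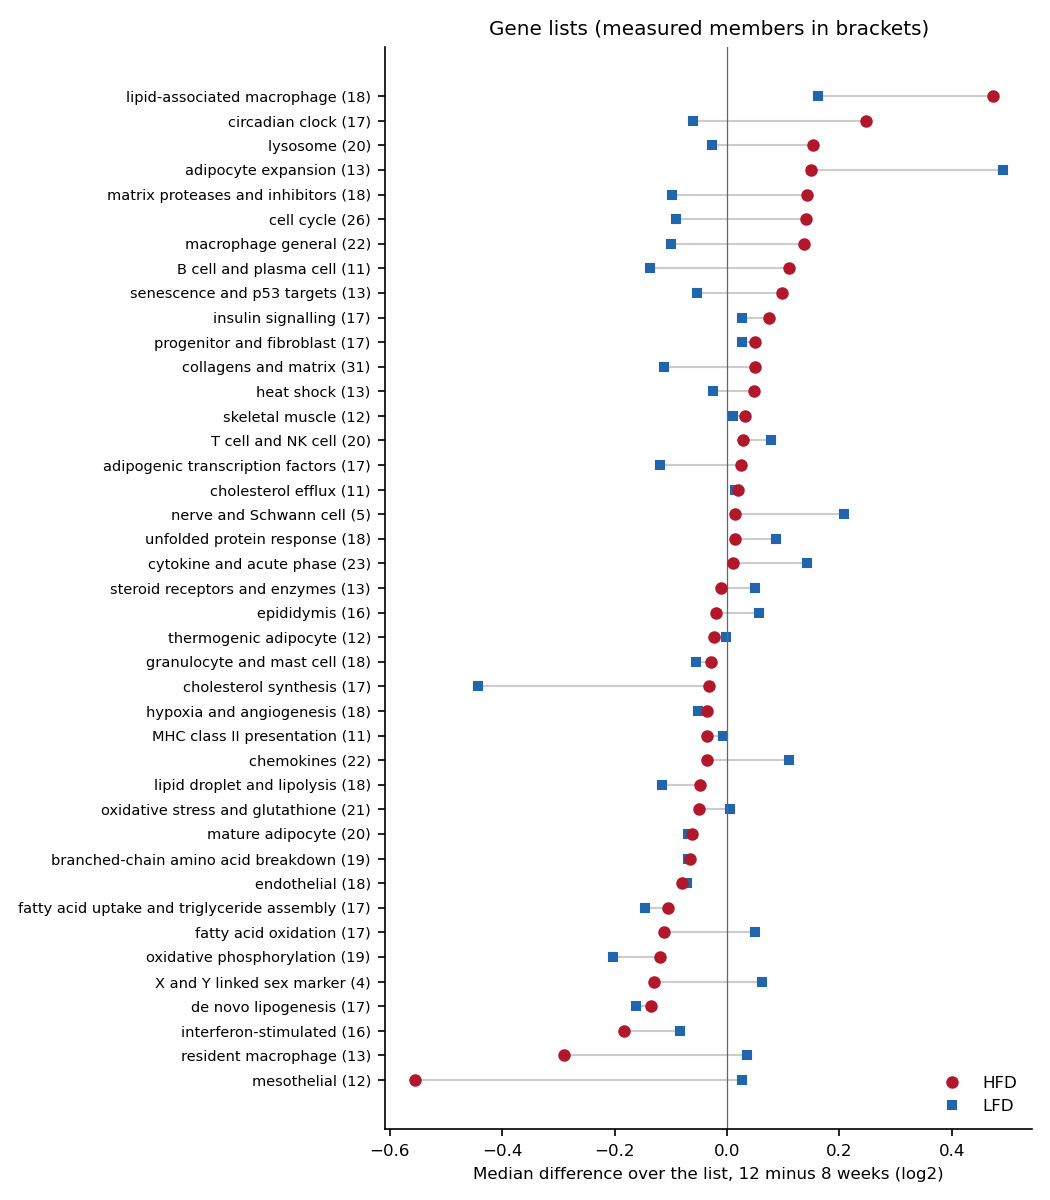
Median log2 difference of 12 minus 8 weeks over each gene list with 3 or more measured members (the number in brackets), under HFD (red circles) and LFD (blue squares); the hepatocyte list and the list of liver genes with a sex bias lie outside the range drawn and are left out. Lipid-associated macrophage genes have the highest HFD median (0.47) and mesothelial genes the lowest (-0.56).

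Liver transcripts set the widest spread within the groups. Alb, which encodes serum albumin, was 13.09, 12.96, 6.45 and 13.07 in the HFD 12-week arrays and 10.46, 13.62, 13.52 and 13.34 in the HFD 8-week arrays. The difference of -1.34 ± 1.39 was smaller than its error. All 25 measured hepatocyte genes had a negative difference (median -1.34), and 0 were called or had an unadjusted p under 0.05. Without HFD 12-week array 3 the difference of Alb was 0.30, on the other side of 0. Apoa1, the main protein of high-density lipoprotein, differed by -1.08 with all arrays. With HFD 8-week array 1 and HFD 12-week array 3 left out and all other arrays kept, all 25 genes still had a negative difference. The median of the list was then -1.11, and again 0 of the 25 genes were called. In the HFD arrays that remained, the list mean was 9.26 to 9.77 at 12 weeks and 10.52 to 10.58 at 8 weeks. With only arrays of a high hepatocyte mean in the fit, 19 of the 25 were called lower, but those arrays were chosen on these same genes. How much liver RNA each array held was not tested.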

How the data were processed

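RNA of gonadal white fat was measured on Affymetrix Mouse Gene 2.0 ST arrays, and each array is labelled a biological replicate. The deposited values are log2 expression per transcript cluster, made by the authors in the Transcriptome Analysis Console 4.0.2, per the submitters' processing notes; their background correction and normalization are given by no source used here. All 25 value columns were matched to samples by the labels, and 0 were left unmapped.

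Of 34472 clusters, 23521 have 1 gene symbol in the platform annotation, 1814 several and 9137 none, and the brightest cluster stood for each of 22180 genes. Group means of all 7 groups were fitted with limma 3.58.1 in R 4.3.3 (18 residual degrees of freedom), with no block. The contrasts were HFD 12 minus 8 weeks, the same for LFD, and their difference. A gene was called at a Benjamini-Hochberg adjusted p under 0.05 over all genes. The scripts were tested on simulated data. P-values set each difference against the moderated spread between replicates, pooled over all 7 groups.

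The comparison and the gene lists were chosen with earlier results of these data known, and list members share arrays and are not independent. Named were a fixed panel, the called genes filled up to 12 in each direction by the smallest p with arrays apart (provisional, Mir and Olfr names excepted), up to 4 members of smallest p per list described, and the 4 smallest p of the diet difference. Alternatives covered the arrays in the fit, liver transcripts, normalization, low values, the gene summary, moderation, weights, the threshold, the replicate number and single arrays left out.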

Additional observations from a re-analysis of the deposited data

Results flagged for a closer look

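Each gene named in the text was checked for a single array far from the other 3 of its group, in both HFD groups. The measure was Dixon's ratio of the gap to the range, at its critical value for 4 arrays. Of 254 gene and group pairs (127 genes), 27 exceeded it, 15 of them in HFD 8-week array 1. Chance gives about 5%. Several genes, however, were named because they were called once that array was left out, so the tally is a description only.

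HFD 12-week array 3 was far below its group for the liver genes Alb (6.45) and Apoa1 (4.09), and far above it for the chemokine Cxcl9 (10.56). HFD 8-week array 1 was far below its group for the same liver genes, Alb (10.46) and Apoa1 (5.89), and for Xist (3.78). In that HFD 8-week array Trem2 (9.32), Tm4sf19 (9.12), Cd68 (11.71), Slc37a2 (8.45), Adam8 (9.11), Igsf6 (10.96) and Gas2l3 (7.88) were far above the other arrays of the group. Evl, the host gene of Mir342, was high in it as well (9.18), as were Otop1 (6.50) and Irf7 (8.28), while Acaca (9.34) and Zc3h12c (7.12) were low.

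The remaining values were spread over other arrays. In HFD 12-week array 1, Lyve1 (8.85) and Nr1d2 (8.36) were low, and in HFD 12-week array 4 Gzma was low (4.84). In HFD 8-week array 2, Fasn was high (12.48), and Cry1 (5.75), Mki67 (7.59) and Cxcl9 (9.57) were low. In HFD 8-week array 3, Pparg was low (10.63) and Cldn5 high (8.85). What sets these arrays apart was not tested.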

How the results depend on the processing

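The count of 8 genes between 12 and 8 weeks of HFD moved with the arrays that share the estimate of the spread. It was 2 with the 8 compared arrays alone, 2 with the 11 HFD arrays alone, 26 without the 3 arrays of other groups that hold epididymis transcripts, and 37 with array weights (13 higher, 24 lower). It was 96 over every transcript cluster, 13 with only the arrays of high Alb and 5 with the hepatocyte mean as a covariate. An analysis of variance gave 14 genes after adjustment, and 196 at the unadjusted p and 1.5-fold minimum that the series text names. That last setting gave 372 genes for the difference between the diets. Leaving out 1 array at a time gave 4 to 14 genes. The 14 came without HFD 8-week array 1, and the 4 without HFD 8-week array 3 or HFD 12-week array 4. The gap in Alb separated 20 arrays from 5 and left HFD 8-week array 1 among the high ones. The gap in the hepatocyte mean, with 11 arrays above it, was therefore added after seeing the data. As a block, that split gave 98 genes (8 higher, 90 lower) and 155 for the difference between the diets. With only the arrays above it the counts were 323 and 260, where 19 of the 25 hepatocyte genes on which those arrays were chosen were called. The same 6 arrays with all other groups kept gave 10 genes, none of them hepatocyte genes. The causes of these moves were not tested. The other alternatives gave 6 to 11 genes. Limma called 0 genes for the difference between the diets under every other alternative run.

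Of the called genes, Mir467c was called under all 36 alternatives, Olfr310 in 35 of 35, Mir466h and Mir669a-3 in 34 of 36, Cox7b in 29, Mir342 in 26, Olfr875 in 17 of 35 and Mir3471-1 in 16 of 35. None of the 8 called genes turned its direction. Among all 238 genes compared, 33 that had no unadjusted p under 0.05 changed sign under at least 1 alternative, such as Alb, at 0.30 without HFD 12-week array 3 and 0.01 with the hepatocyte mean as a covariate. So did the medians of 21 lists, near 0 apart from the hepatocyte list under that covariate. The T and NK cell median was -0.16 at the lowest. The replicate numbers did not pair the samples: same-numbered arrays deviated with correlations of -0.22, 0.21, -0.34 and 0.26. With the replicate block 7 genes were called, 6 of them among the 8, and Mir342 (adjusted p = 0.0532) and Olfr875 (adjusted p = 0.0783) lost their call. With 4 arrays a group, the number of arrays limits the precision, and dim genes such as Mir3471-1 and Olfr875 lie near the lower end of the signal.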

Other observations

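Some single genes of the T cell and chemokine lists, picked by their p and not called, are given as values. The lists themselves were mixed in sign, with 12 of 20 T and NK cell genes and 10 of 22 chemokines positive. Foxp3, the transcription factor that defines regulatory T cells, was 5.38, 6.04, 5.83 and 5.65 in the HFD 12-week arrays and 5.69, 5.07, 5.21 and 5.18 in the HFD 8-week arrays, a difference of 0.44 ± 0.20 (adjusted p = 0.637 by limma). Ctla4, an inhibitory receptor that these cells carry, was dim and had 0.40 ± 0.15, with arrays that did not overlap. Gzma, a granzyme of cytotoxic lymphocytes, was 5.01, 4.99, 5.01 and 4.84 in the HFD 12-week arrays and 5.51, 5.31, 5.22 and 5.41 in the HFD 8-week arrays (-0.40 ± 0.17). The chemokines induced by interferon-gamma, Cxcl9 (-0.70 ± 0.37) and Cxcl10 (-0.43 ± 0.20), had negative differences, while Ccl3, a chemokine of activated macrophages, had 0.67 ± 0.29. Cxcl9 was 9.37, 9.17, 10.56 and 9.22 in the HFD 12-week arrays and 10.52, 9.57, 10.45 and 10.58 in the HFD 8-week arrays. In that gene HFD 12-week array 3 and HFD 8-week array 2 stood with the other group.

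Antioxidant and metabolic genes also held single values worth giving. Nfe2l2, the transcription factor NRF2 of the antioxidant response, was 9.81, 9.89, 9.99 and 9.88 in the HFD 12-week arrays and 9.69, 9.74, 9.63 and 9.44 in the HFD 8-week arrays (0.27 ± 0.11, adjusted p = 0.625). Gsta4, a glutathione transferase for lipid peroxidation products, had -0.49 ± 0.20. Echs1, an enoyl-CoA hydratase of fatty acid oxidation, had -0.30 ± 0.14, and Mylip, which targets the LDL receptor for breakdown, 0.36 ± 0.13. Tnfaip3, a brake on NF-kappa-B signalling, had 0.51 ± 0.19. Otop1, a proton channel of adipocytes, was 7.12, 5.79, 6.88 and 5.95 in the HFD 12-week arrays and 6.50, 5.18, 5.33 and 5.23 in the HFD 8-week arrays (0.88 ± 0.27). HFD 8-week array 1 was again the highest of its group. Cldn5, a tight-junction protein of endothelium, had -0.52 ± 0.37 with arrays that did not overlap between the 2 groups. No gene of this paragraph was called.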
